A study of Bos taurus with 3 samples.

Results

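The genes described here are those of the insulin-like growth factor (IGF) system: the ligands IGF1 and IGF2, the receptors IGF1R and IGF2R, and the binding proteins IGFBP2, IGFBP3, IGFBP4, IGFBP5, IGFBP6 and IGFBP7. They were chosen by gene symbol, and all 10 had at least 1 probe set with a single symbol, which gave 19 of the 24016 probe sets tested. For each gene the probe set with the highest mean over the arrays was used, as for all 9155 genes with a symbol. IGF1 and IGF2 are secreted growth factors that act through IGF1R, a tyrosine kinase that promotes growth and survival. IGF2R carries no kinase and takes IGF2 into the cell for breakdown. The binding proteins hold the ligands outside the cell, where they prolong their life or keep them from the receptor, and proteases release the ligand again. In the ovary the system is known to act with gonadotrophins on granulosa and theca cells, and IGF2 is known as a growth factor of fetal tissues.

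RNA from 3 bovine (Bos taurus) ovarian cell cultures was hybridized, each to 1 Affymetrix bovine GeneChip, which reads transcripts near their 3′ end. The 2 Gonadal Ridge Epithelial-Like (GREL) cell isolates were polygonal cells cultured from fetal ovaries, labelled 130 days of gestation, although the methods of the study give a slightly younger fetus for one of them. The study describes them as clonally enriched. The fibroblasts were a single culture, fibroblastic in shape and taken from the medulla of 1 adult ovary (over 1 year). The design text names fetal ovaries as the source of all cells, and the sample label and the methods, which name an adult ovary, were followed. No treatment is named for any culture, and all were grown in the same medium with fetal calf serum. All were isolated with collagenase, at a higher concentration for the adult tissue. Age of the animal, cell type, ovarian region, clonal enrichment and collagenase concentration differ together in this comparison, so they cannot be told apart. A single fibroblast culture gives no spread of its own. In a culture of many cells, fewer cells of a type and less RNA per cell cannot be told apart either.

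Values are log2 RMA expression, rounded by the authors to steps of 0.1, so that a difference may be off by up to 0.1. Over all probe sets the isolates correlated at a Pearson r of 0.984 with each other and at 0.950 and 0.934 with the fibroblasts (correlations across probe sets, not replicates). A background level was taken as the 95th percentile of 54 genes of other organs, namely 6.86 on the fibroblast array, 6.69 on that of isolate 1 and 7.01 on that of isolate 2. POMC, PRL and ALB read bright and raised it, and the medians of the 54 were 2.0, 1.85 and 1.9. A value under this level is uncertain in size and does not show that a gene is silent. Of 9 measured epithelial markers 3 exceeded 3-fold in both GREL isolates, all in the direction of GREL cells, as did 2.38% of all genes. The 3 markers are KRT7, KRT19 and PKP2. The study lists them, and STAR below, among genes over 3-fold higher on these same arrays. Their passing this rule is therefore no independent evidence of cell identity. KRT19, a keratin of simple epithelia, read 7.1 in fibroblasts, 11.3 in isolate 1 and 11.6 in isolate 2, whereas the epithelial cadherin CDH1 was at 3.6, 4.7 and 3.2 and thus not above background in any culture. The claudin CLDN1 was lower in both isolates, at 9.1 in fibroblasts, 8.5 in isolate 1 and 6.9 in isolate 2. Of 10 markers of stroma and fibroblasts 9 were lower in both isolates, beside 33.5% of all genes, and 2 were over 3-fold lower. In each direction 2.38% of all genes were over 3-fold apart in both isolates, which is the share beside the marker counts below as well. The collagens of this list and decorin (DCN) stayed above the background level in both isolates. DCN read 11.4 in fibroblasts, 10.8 in isolate 1 and 10.1 in isolate 2. The matrix gene LUM read 8.5, 7.1 and 5.8 in the same order, and the marker TCF21 7.4, 3.4 and 3.2. By protein staining of tissue, the study states that GREL cells lack decorin and collagen type I. Of 8 granulosa markers 1 was over 3-fold higher in both isolates, GATM, which makes a precursor of creatine, at 4.3 in fibroblasts, 7.5 in isolate 1 and 6.8 in isolate 2. The granulosa markers FSHR, CYP19A1 and FOXL2 lay at 2.0 or below on every array, and the 8 summed to 7.14 (log2) in fibroblasts, 8.56 in isolate 1 and 7.92 in isolate 2. FOXL2 does not mark granulosa cells alone, since the study found its protein strongly in GREL cells of tissue sections. In the cultured GREL cells its RNA was under the background level. Of 6 theca and steroidogenic markers, STAR, which brings cholesterol into mitochondria, was over 3-fold higher in both isolates (3.5, 8.0 and 7.0 in the same order), and CYP11A1 over 3-fold lower. Of 7 smooth muscle markers 5 were above the background level on at least 1 array, and MYLK, the myosin light chain kinase, was over 3-fold lower in both isolates (10.6, 8.0 and 7.0). No measured marker of endothelium, blood cells or germ cells reached the background level. Only 4 of 6 germ cell markers were measured, and DDX4 and DAZL were not among them. Of these 4, KIT was over 3-fold lower in both isolates, at 5.7 in fibroblasts, 1.5 in isolate 1 and 2.7 in isolate 2. The part of these cell types in the results below was not tested.

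In GREL cells IGF2 was the member with the highest difference from the fibroblasts (21.1-fold and 11.3-fold higher in the 2 isolates) and IGFBP4 the member with the lowest (12.1-fold and 13.9-fold lower). IGFBP5 was also over 3-fold lower in both isolates. IGFBP2, IGFBP6 and IGF2R were lower in both but past 3-fold in 1 isolate only, IGFBP3 and IGF1R were higher in both by less than 3-fold, and IGF1 and IGFBP7 overlapped with the fibroblasts. Thus 1 of 10 genes was over 3-fold higher in both isolates, where 2.38% of all genes were, and 2 of 10 were over 3-fold lower, where 2.38% were as well. The 1 higher gene, IGF2, exceeded 3-fold in both isolates at 1 of its 4 probe sets, and with the mean over probe sets the count was 0. Under a looser rule, over 3-fold in 1 isolate alone, the count of lower genes was 4 without isolate 1 and 3 without isolate 2. The share of all genes under that looser rule was not computed, so 2.38% is no measure for these counts. In 8 of the 10 genes the fibroblast value lay outside the range of the isolates, which was so for 75.1% of all genes, a share near that of the members. Their median log2 difference stood at -0.78, against 0.05 over all genes, and at -0.25 without isolate 2. None of the 10 passed an adjusted p under 0.05 in limma, nor did any probe set on the array (0% higher and 0% lower). At an unadjusted p under 0.05 there were 4 of the 10 (IGF2, IGF1R, IGFBP4 and IGFBP5), beside 23.9% of all genes. The spread in this fit came from the 2 isolates alone. An exact permutation test of 2 arrays against 1 cannot give a p under 0.333.

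**Figure D1:**
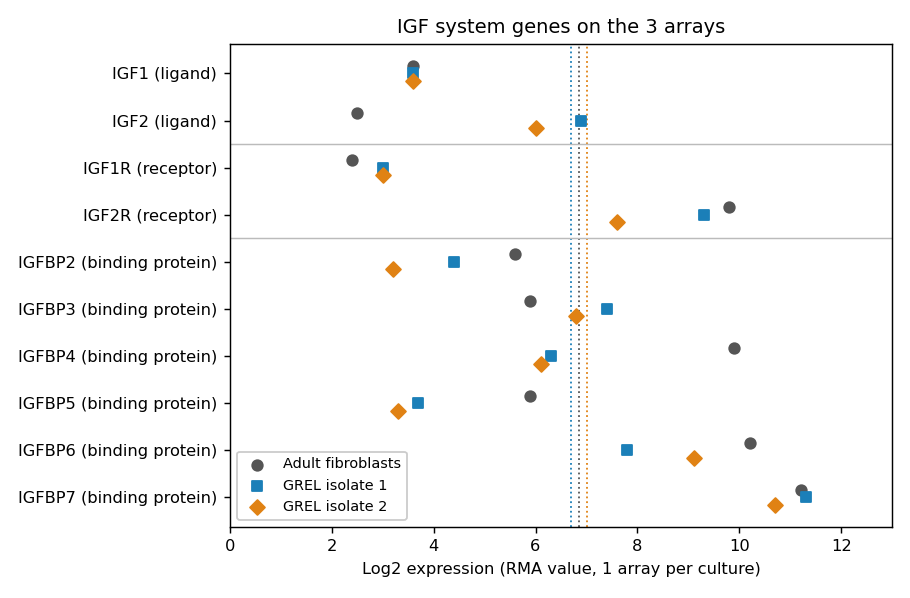
RMA values (horizontal axis, log2) of the 10 IGF system genes, from 1 array for each culture. Circles stand for adult fibroblasts, squares for GREL isolate 1 and diamonds for isolate 2. Dotted lines mark the background level of each array in the same colours. IGF2 lies at 2.5 in fibroblasts, 6.9 in isolate 1 and 6.0 in isolate 2, and IGFBP4 at 9.9 and at 6.3 and 6.1.

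**Figure D2:**
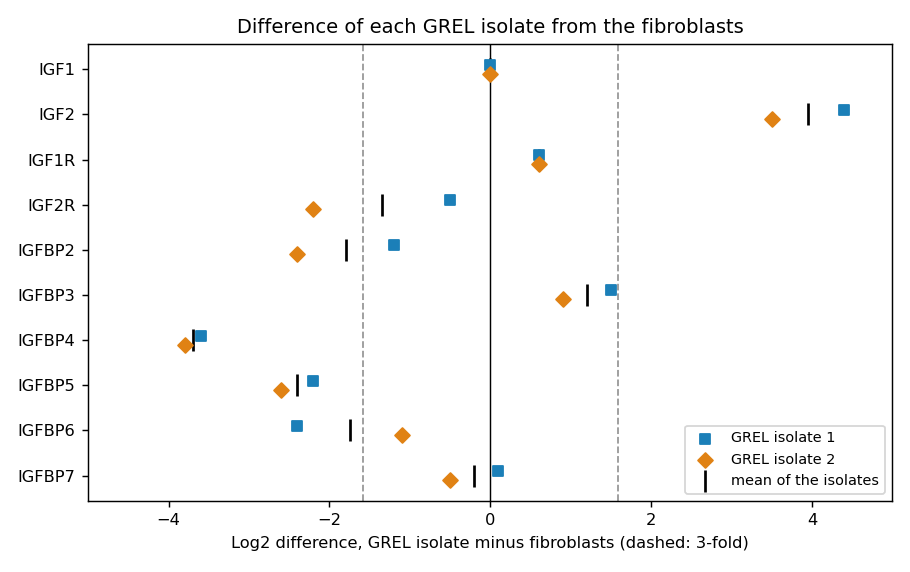
Log2 difference from the fibroblasts (horizontal axis) of GREL isolate 1 (squares) and isolate 2 (diamonds) with their mean (bar) for each gene. Dashed lines mark 3-fold, which both isolates pass for IGF2, IGFBP4 and IGFBP5.

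Among the ligands, IGF2 had log2 values of 2.5 in fibroblasts, 6.9 in GREL isolate 1 and 6.0 in isolate 2. Both isolates stood well above the fibroblasts, and the groups did not overlap. The log2 difference was 3.95 (standard error, SE, 0.63, n = 2 against 1, adjusted p = 0.227 in limma), and IGF2 ranked 6 among all 9155 genes by the size of the difference in this direction. Only the value of isolate 1 lay above the background level (6.69), while that of isolate 2 did not (7.01), so the size of the difference is uncertain. IGF2 is read by 4 probe sets, and they disagreed. The second by mean read 2.2 in fibroblasts, 3.6 in isolate 1 and 2.5 in isolate 2. The third read 2.3 in fibroblasts, 2.5 in isolate 1 and 2.3 in isolate 2, and the fourth read 1.6, 1.6 and 1.7 in the same order. Thus the clear difference was seen by 1 probe set of the 4, and with the mean over all 4 it was 1.24, which is under 3-fold.

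IGF1, the other ligand, was at 3.6 on all 3 arrays at its brightest probe set. Its other 3 probe sets lay between 0.9 and 2.5, with log2 differences of 0.05, -0.15 and -0.50. All its values were below the background level. A difference in IGF1 was therefore not detectable at this signal.

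**Figure D3:**
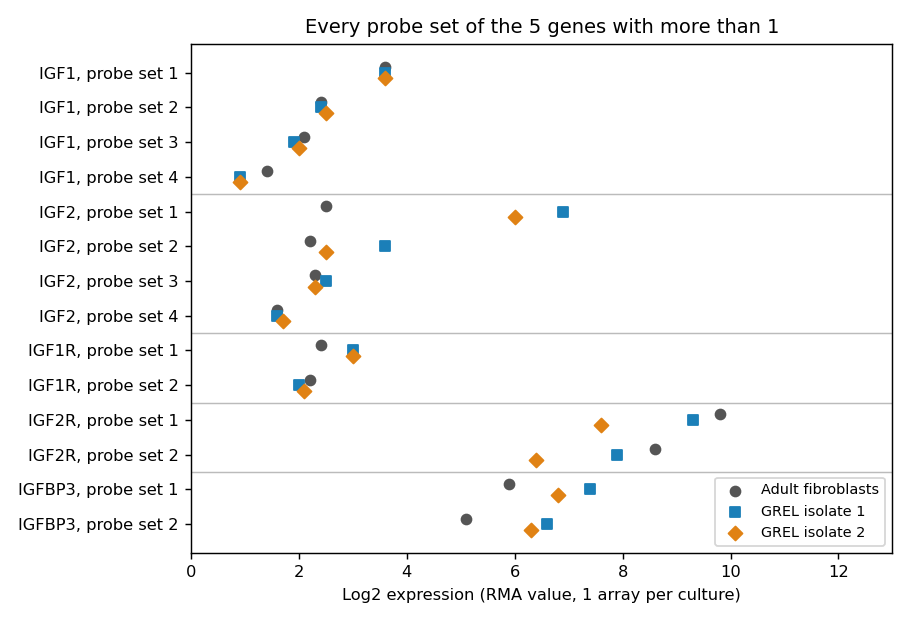
RMA values (horizontal axis, log2) at every probe set of the 5 genes with more than 1, numbered by falling mean. The probe sets of IGF2R and of IGFBP3 run in parallel, while 1 of the 4 probe sets of IGF2 holds the wide gap between GREL cells and fibroblasts.

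Of the receptors, IGF2R, which clears IGF2, had a value of 9.8 in the fibroblasts, 9.3 in GREL isolate 1 and 7.6 in isolate 2. Its second probe set read 8.6 in fibroblasts, 7.9 in isolate 1 and 6.4 in isolate 2, so both probe sets gave the same order of the cultures. All 3 values of the brighter probe set were above the background level. Isolate 1 was close to the fibroblasts, 1.41-fold lower, and isolate 2 was 4.59-fold lower. The log2 difference of -1.35 (SE 1.18, adjusted p = 0.587 in limma) was smaller than the gap of 1.70 between the isolates. The comparison of GREL cells with fibroblasts therefore rested on isolate 2.

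IGF1R, the signalling receptor, read 2.4 in fibroblasts against 3.0 in each isolate. All 3 values were far below the background level, and its second probe set, with 2.2 in fibroblasts, 2.0 in isolate 1 and 2.1 in isolate 2, differed in the other direction. The log2 difference of 0.60 had a standard error of 0.03 and an adjusted p = 0.182 in limma. That standard error is too small, since both isolates round to 3.0. The insulin receptor INSR, which can form hybrids with IGF1R, read 2.3 in fibroblasts against 2.1 in each isolate.

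The 6 binding proteins had a median log2 difference of -1.77. In 4 of them both isolates were lower than the fibroblasts, which was so for 33.5% of all genes, and in 1 both were higher, beside 41.6%. All 4 that were lower were more than 2-fold lower in both isolates, where 4.78% of all genes were, and none was more than 2-fold higher in both, where 5.8% were. Of these 4, IGFBP2 and IGFBP5 were under the background level on every array, and IGFBP4 was under it in both isolates. The size of their differences is therefore uncertain.

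IGFBP4 binds both ligands and is known as an inhibitor of their action, in ovarian follicles among other tissues. It was at 9.9 in the fibroblasts, 6.3 in GREL isolate 1 and 6.1 in isolate 2. The isolates lay close together and far below the fibroblasts. The log2 difference was -3.70 (SE 0.14, adjusted p = 0.182 in limma), and IGFBP4 ranked 23 among all genes by the size of the difference in this direction. The fibroblast value was above the background level, and those of the isolates were not, so that the fold of this gene is uncertain on the GREL side.

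IGFBP5, which also binds matrix, read 5.9 in fibroblasts, 3.7 in isolate 1 and 3.3 in isolate 2. Both isolates lay below the fibroblasts, by 4.59-fold and 6.06-fold. The log2 difference was -2.40 (SE 0.28, adjusted p = 0.2 in limma), and all 3 values were under the background level. IGFBP2, a binding protein of many fetal tissues, read 5.6 in fibroblasts, 4.4 in isolate 1 and 3.2 in isolate 2. It was lower in both, 2.30-fold in isolate 1 and 5.28-fold in isolate 2, but the isolates were 1.20 apart. The log2 difference was -1.80 (SE 0.84, adjusted p = 0.392 in limma), again with all 3 values under the background level. IGFBP2 and IGFBP5 are neighbouring coding genes in the RefSeq annotation of the ARS-UCD2.0 assembly, and both were lower in GREL cells.

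IGFBP6, which prefers IGF2 over IGF1, was at 10.2 in the fibroblasts, 7.8 in GREL isolate 1 and 9.1 in isolate 2. All 3 values were above the background level, and both isolates lay below the fibroblasts. Here isolate 1 was the lower, by 5.28-fold against 2.14-fold in isolate 2, the reverse of the order seen for IGF2R and IGFBP2. The log2 difference was -1.75 (SE 0.91, adjusted p = 0.408 in limma).

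IGFBP3, the main carrier of IGFs in blood, was the binding protein that was higher in both isolates. It read 5.9 in fibroblasts, 7.4 in isolate 1 and 6.8 in isolate 2, and a second probe set read 5.1, 6.6 and 6.3 in the same order. The probe sets gave log2 differences of 1.20 (SE 0.42, adjusted p = 0.328 in limma) and 1.35 (SE 0.21, adjusted p = 0.227). Isolate 1 alone exceeded the background level. IGFBP1, the coding gene next to IGFBP3 in the same annotation, read 2.5 in fibroblasts, 2.3 in isolate 1 and 2.2 in isolate 2.

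IGFBP7, a matrix protein with lower affinity for IGFs, was bright in every culture, at 11.2 in the fibroblasts, 11.3 in GREL isolate 1 and 10.7 in isolate 2. The fibroblast value lay between those of the isolates. The log2 difference of -0.20 (SE 0.42, adjusted p = 0.792 in limma) was smaller than the gap between the isolates.

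**Figure D4:**
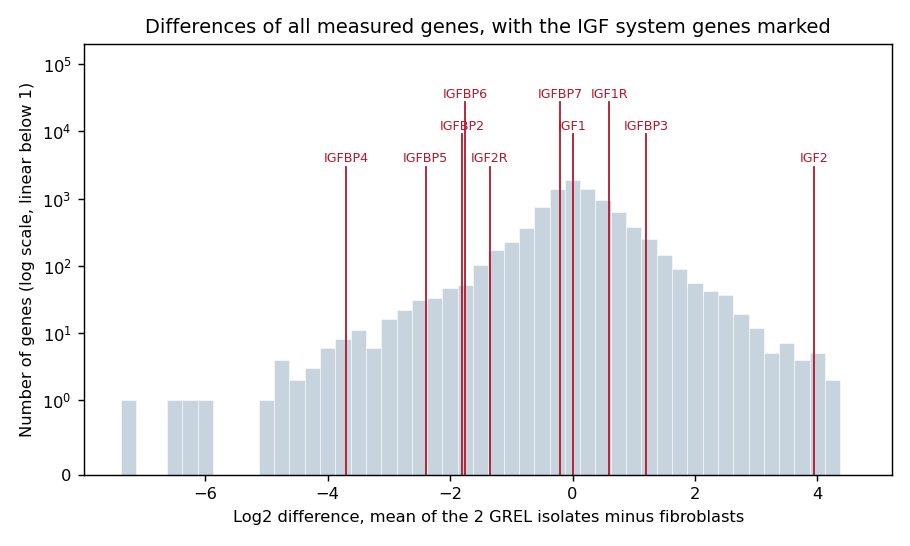
Number of genes (vertical axis, log scale, linear below 1) by mean log2 difference of GREL cells from fibroblasts (horizontal axis, bars of 0.25) for 9155 genes, with the IGF system genes as vertical lines. IGF2 at 3.95 and IGFBP4 at -3.70 lie in the thin tails, and IGF1 and IGFBP7 in the centre.

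The isolates themselves differed in several of these genes. The gap between them exceeded 1 log2 unit in 3 of the 10, IGF2R (1.70), IGFBP6 (1.30) and IGFBP2 (1.20), while 2.30% of all genes were that far apart. The median gap was 0.60 in the members and 0.20 over all genes. In 7 genes isolate 1 was higher, in IGFBP6 isolate 2 was, and IGF1 and IGF1R were equal, whereas over all genes isolate 1 was higher in 34.7% and isolate 2 in 51.4%. With 1 array per isolate, a difference between isolates cannot be told apart from one between arrays. Markers of stroma also stood apart between the isolates, the 10 of them summing to 13.46 (log2) in fibroblasts, 12.79 in isolate 1 and 12.00 in isolate 2. Among the members lower in both isolates the fibroblasts stand highest by selection, so only the order of the isolates is left to compare. Isolate 1 was the higher in IGF2R, IGFBP2, IGFBP4 and IGFBP5, and isolate 2 in IGFBP6. Isolate 1 was also the higher in IGF2 and IGFBP3, which were higher in both isolates than in fibroblasts. The part of stromal cells in these values was not tested. The 9 epithelial markers summed to 11.02 in the fibroblasts and to 12.49 and 12.75 in the isolates.

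Other genes of the pathway were described by 4 lists. Of 10 measured proteases of binding proteins, their inhibitors and other carriers, 2 exceeded 3-fold in both GREL isolates, both with the higher value in fibroblasts, and none did in the other direction, each of which holds for 2.38% of all genes. These were the matrix metalloprotease MMP2 and the metalloprotease ADAM12, both known to cleave binding proteins. MMP2 read 10.1 in fibroblasts, 8.0 in isolate 1 and 7.7 in isolate 2, all above the background level. ADAM12 read 5.1 in fibroblasts, 2.5 in isolate 1 and 2.7 in isolate 2, all below it. The protease PAPPA, which cuts IGFBP4, lay between 1.7 and 1.9 on all arrays and was thus not detectable above background. The median log2 difference of this list was -0.25.

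Of 24 measured genes of insulin receptor and IGF signalling, 1 exceeded 3-fold in both GREL isolates, with the higher value in fibroblasts, and none did in the other direction, beside 2.38% of all genes in each. This was FOXO4, a forkhead factor that AKT kinases hold out of the nucleus, with 6.3 in fibroblasts, 3.1 in isolate 1 and 2.8 in isolate 2, all below the background level. SHC1, an adaptor of the receptors, read 8.9 in fibroblasts against 7.7 in each isolate, above the background level in each. The kinase AKT1 read 8.0 in fibroblasts, 7.7 in isolate 1 and 7.8 in isolate 2. The list had a median log2 difference of -0.28, and apart from FOXO4 its differences were smaller than those of IGF2, IGFBP4 and IGFBP5.

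Of 5 measured genes of the growth hormone axis and of IGF2 mRNA binding, 1 exceeded 3-fold in both GREL isolates, with the higher value in GREL cells, and none did in the other direction, beside the same 2.38% in each. IGF2BP3, a protein that binds IGF2 mRNA, read 2.9 in fibroblasts against 5.9 in each isolate, under the background level. The growth hormone receptor GHR read 2.0 in fibroblasts, 2.1 in isolate 1 and 1.9 in isolate 2. Of 9 membrane partners of binding proteins none was over 3-fold apart in both isolates, in either direction. Among them the integrin subunit ITGB3 read 7.1 in fibroblasts against 8.3 in each isolate, and ITGA5 read 5.0, 3.6 and 3.4 in the same order of cultures. No gene of the 4 lists passed an adjusted p under 0.05 in limma. IGFBP1, INSR, PAPPA, SHC1, AKT1, GHR, ITGB3 and ITGA5 were named after their values were seen. So were the markers GATM, FSHR, CYP19A1, FOXL2, STAR, CYP11A1, MYLK, KIT, KRT7, PKP2, LUM and TCF21.

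**Figure D5:**
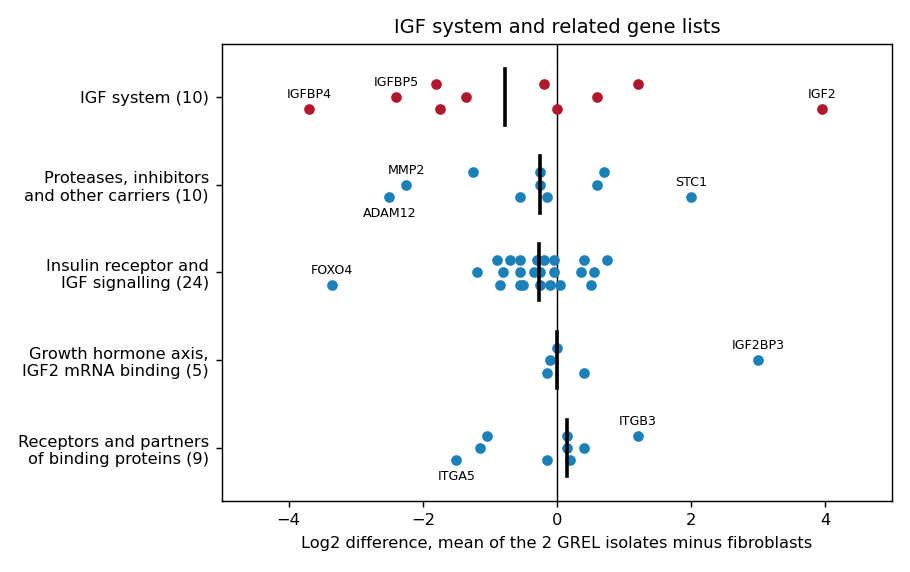
Mean log2 difference of GREL cells from fibroblasts (horizontal axis), with 1 point for each gene of the IGF system and of 4 related lists, whose sizes stand in brackets and whose medians are drawn as vertical bars. The points of the IGF system run from -3.70 to 3.95, and those of the signalling list lie between -3.35 (FOXO4) and 0.75.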

How the data were processed

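The authors deposited log2 values after RMA background correction and quantile normalization (Partek 6.5 in the submitters' processing notes), without detection calls. No genome build is named for the array data, so no coordinates are printed, and the RefSeq gene table (ARS-UCD2.0) served for names and neighbouring genes only. The table holds 24128 probe sets, and its 112 array controls were not tested. By the platform annotation 13292 probe sets had 1 symbol, 86 several and 10638 were unnamed here. The RefSeq gene table held the identifier of 13263 of them and changed 0 symbols.

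GREL cells were compared with fibroblasts over 24016 probe sets with lmFit and eBayes of limma 3.58.1 in R 4.3.3 (1 residual degree of freedom, prior of 0.55) and Benjamini-Hochberg adjustment. The fit was first run on simulated data, where it was only required to return the mean differences put in. The simulated spread was set otherwise than in these data, so that run does not check the p-values. In 3513 probe sets the isolates have identical values, which makes their standard errors too small. Counts and plots used Python 3.11.15. p-values measure the spread between 2 isolates only, and the number of arrays limits the precision.

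The members and lists were chosen with earlier results of these data known. Members are named, with up to 4 genes in each direction of each list over 3-fold in both isolates, and the 3 genes nearest to the highest and the lowest member. Alternatives were the methods' one-way analysis of variance, other priors, leaving out dim probe sets, other normalizations, the mean over probe sets, other folds, another background level and leaving out either isolate. The other probe sets of a gene were added after seeing the data.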

Additional observations from a re-analysis of the deposited data

How the results depend on the processing

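Calls were 0 higher and 0 lower in limma with an intensity trend, the filter on dim probe sets and both normalizations, and in the methods' test. At an unadjusted p under 0.05 the methods' test had 186 and 208, and limma as reported 2354 and 2666. These counts cover unlike sets, 20503 probe sets in the methods' test and 24016 in limma. The methods' test gives no p-value where the isolates are identical, as for IGF1 and IGF1R. With a robust prior there were 571 higher and 618 lower over all probe sets, 4.95% of them, and IGF1R was the only one of the 10 genes called (adjusted p = 0.0452 in limma), with identical values in the isolates. The cause was not tested. The count of members over 3-fold higher was 0 with the mean over probe sets. That mean averages IGF2 with its 3 flatter probe sets, which lay under the background level. In every other setting the count was 1, also without either isolate and at 2-fold or 4-fold. Of all genes 5.8% were over 2-fold and 0.961% over 4-fold higher in both isolates. Among genes above the background level on some array, 3.95% were over 3-fold higher. The count over 3-fold lower was 1 among the 6 members above the background level on some array, a filter that drops IGFBP5. Of all genes above that level 4.34% were over 3-fold lower. At a 2-fold threshold the count was 4, beside 4.78% of all genes. In 1 isolate alone the count over 3-fold lower was 4 without isolate 1 (IGF2R, IGFBP2, IGFBP4, IGFBP5) and 3 without isolate 2 (IGFBP4, IGFBP5, IGFBP6). No share over all genes was computed for 1 isolate alone. The median log2 difference of the members ranged from -0.82 with the arrays centred on the median to -0.25 without isolate 2. Without isolate 1 it was -0.80. Of 93 values of single members under an alternative, 82 were unchanged within the spread of the isolates or on the same side of the threshold, 10 moved, 1 (IGF1R, above) passed the threshold and 0 changed sign after passing 3-fold. Of the 10 genes 7 kept the sign of their difference in all of these. The others were IGF1, at 0.0 to begin with, IGF1R, whose second probe set gave -0.15, and IGFBP7, at 0.10 in isolate 1. No paired analysis was possible because the fibroblasts are a single culture. Signal over background limits IGF1, IGF1R, IGFBP2 and IGFBP5, which were below the background level on all 3 arrays. With the 90th percentile as the level, 6 members were above it in isolate 2, in place of 3.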

Other observations

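By the distance between log2 values on the 3 arrays, the genes nearest to IGF2 were TNNC1, a troponin (distance 0.71), PEG10, an imprinted gene of retrotransposon origin (0.81), and SHROOM3, an actin-binding protein (0.92). PEG10 read 3.1 in fibroblasts, 7.4 in isolate 1 and 6.2 in isolate 2. Nearest to IGFBP4 were PCOLCE2, an enhancer of procollagen processing (0.51), BNIP3, a mitochondrial protein of autophagy (0.69), and ERRFI1, an inhibitor of EGF receptor signalling (1.02). PCOLCE2 read 9.5 in fibroblasts, 6.6 in isolate 1 and 6.2 in isolate 2. Over 3 arrays such likeness is a description only.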
